A study of Mus musculus with 18 samples.

Results

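The transcriptional effect of A-241 was examined in AT3 cells that were also exposed to IFNγ, by setting the 3 libraries of cells given A-241 and IFNγ against the 3 libraries of cells given IFNγ alone. These are 6 of the 18 libraries of the series. AT3 is a mouse mammary carcinoma line that serves the study as a model of triple-negative breast cancer, and no genetic change was made to the cells in any group. Cells of the IFNγ group were held in the vehicle DMSO for 1 h, after which IFNγ (1 ng/mL) was added for 2 h. Cells of the A-241+IFNγ group had A-241 at 250 nM in place of DMSO before the same exposure, so that the inhibitor was present for 3 h in all. DMSO alone and A-241 alone are the matched groups without IFNγ, with 3 libraries each. The remaining groups had A-485, a second catalytic P300/CBP inhibitor, at 1000 nM, alone or with IFNγ, also with 3 libraries each. They serve here only for a second split of genes by IFNγ response and for the spread estimated over all 18 libraries. The design text speaks of technical triplicates and the sample labels of biological ones, so n counts libraries, and a p-value measures the spread between them. All 6 libraries were used, and 11964 genes passed a filter on low counts and were tested.

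P300 and its paralog CBP are lysine acetyltransferases that are brought to enhancers and promoters by transcription factors. There they acetylate histones, including lysine 27 of histone H3, and this mark is bound by bromodomain proteins that help RNA polymerase II to start and elongate. A-241 blocks their catalytic domain. IFNγ acts through receptor-bound kinases and transcription factors that bind GAS elements (gamma-activated sites) and induce Irf1, and IRF proteins then bind ISRE elements (interferon-stimulated response elements) at a second set of genes. The comparison asks which transcripts depend on P300/CBP catalytic activity while this response is running, and it covers the genes that IFNγ leaves alone as well as those it induces.

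Deposited totals ranged from 4251408 to 7856830 counts in the 6 libraries. IFNγ replicate 2 stood apart from the other libraries of its group. The transcript Gm42418 held 23.05% of its counts against 8.24% to 12.1% in the other 5, and its root mean square deviation from the rest of its group was 1.13 on the log2 scale against 0.359 to 0.717. DMSO replicate 3 was similar at 20.1% and 1.10. It enters the comparison without IFNγ, the split of genes by IFNγ against DMSO and the interaction. Like every library, it also enters the spread estimated over all 18 libraries. Both were kept, and results that turn on IFNγ replicate 2 are given with and without it. Of 14 epithelial markers 1, Krt19, was at 0 in all 6 libraries. Sums over markers are given per 1e+06 deposited counts, without scaling factors. For epithelial markers they were 1394 to 1601 with IFNγ and 1237 to 1299 with A-241 and IFNγ. Markers of leukocytes summed to 18.9 to 32.7 and 10.2 to 35.3, with Cd4, Ncr1, Adgre1 and Itgax at 0. Elsewhere, CPM stands for counts per 1e+06 scaled library counts. Of 27 markers of 5 cell types that could be tested 0 were called by edgeR, 10 were lower and 0 higher with A-241 at an unadjusted p below 0.05, and DESeq2 called 5 lower; their part in the results was not tested.

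More transcripts were called lower than higher with A-241. At an adjusted p below 0.01 (edgeR quasi-likelihood test, Benjamini-Hochberg adjustment over all genes tested), 424 genes were lower with A-241 and IFNγ than with IFNγ alone, 3.54% of those tested, and 65 were higher, 0.543% of those tested. At an unadjusted p below 0.05, 1437 were lower and 977 higher. The balance varied with the processing, with 1041 lower and 503 higher when 2 surrogate variables were added, and 234 to 429 lower and 16 to 68 higher when 1 library was left out, the fewest increases without A-241+IFNγ replicate 1. Far fewer genes were called in both directions when only the compared libraries were fitted, with the counts given below under the processing. The decreases were also deeper. Their median log2 fold change was -1.73, or -1.72 with the 25 genes of 3 counts or fewer in every A-241+IFNγ library set at the bound of their fold, with 365 of 424 beyond 1 on the log2 scale and 173 beyond 2, whereas the median of the 65 increases was 1.07, with 42 beyond 1 and 4 beyond 2. The bulk of the transcriptome was centred near 0, with a median of -0.02 and quartiles of -0.37 and 0.27. In all 489 called genes, 4.09% of those tested, every library of one group lay above every library of the other, which was so for 23.8% of all genes tested. Scaling by total counts in place of TMM factors moved the median of all genes to 0.13 and changed the split from 424 lower and 65 higher, or 86.7% lower, to 294 and 96, or 75.4% lower. Values are relative to the bulk of transcripts in each library, and a change in total RNA per cell, or in the make-up of the culture, cannot be told apart from them.

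**Figure D1:**
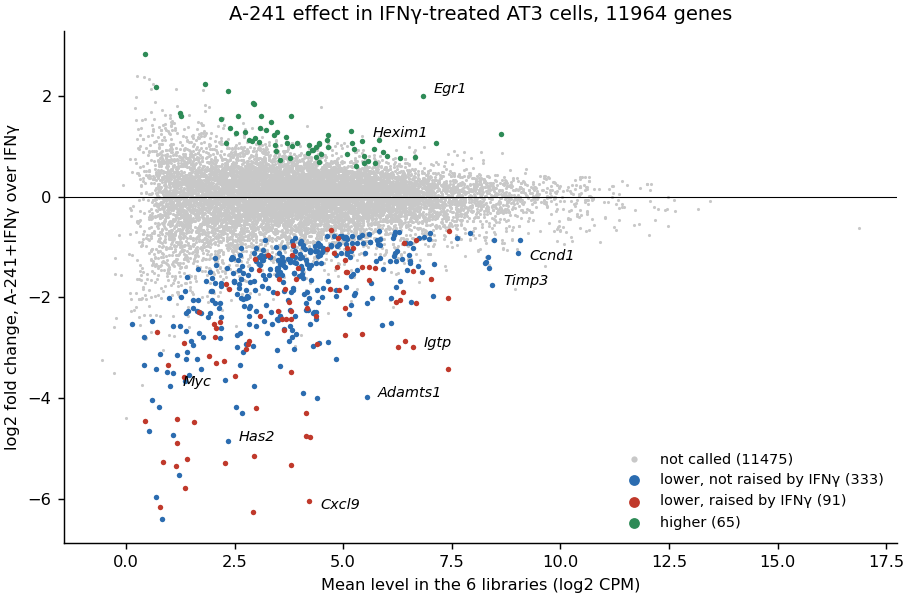
Log2 fold change between A-241+IFNγ and IFNγ (vertical axis) against the mean level in the 6 libraries in log2 CPM (horizontal axis), 1 point per gene for 11964 genes. The 333 blue and 91 red points are the genes lower with A-241 and the 65 green points those higher; the decreases reach beyond -6 and the increases stay below 3 on the log2 scale.

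The decreases were spread over the range of expression. Among 4 equal groups of 2991 genes ordered by level, 118, 131, 110 and 65 were lower from the lowest level to the highest, and 9, 22, 21 and 13 were higher. Of the 11964 genes tested 10286 were protein-coding, of which 409 were lower (3.98%) and 65 higher (0.632%). Of 78 lincRNAs 5 were lower (6.41%) and 0 higher. The shares of all genes tested were 3.54% lower and 0.543% higher, so the number of protein-coding decreases is not read as a result about that class. Of 1028 processed pseudogenes, whose reads can be shared with their parent genes, 3 were lower (0.292%).

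By their response to IFNγ, measured as IFNγ against DMSO with the same test, the tested genes fell into 144 that were higher with IFNγ (1.2% of those tested), 12 that were lower (0.1%) and 11808 that were not called. A-241 lowered 91 of the 144 induced genes (63.2%) and raised 0 of them (2 were higher at an unadjusted p below 0.05, and 0 by DESeq2), with a median log2 fold change of -1.63, and 141 of the 144 values were negative. Among the 11808 genes not called with IFNγ, 327 were lower (2.77%) and 64 higher (0.542%), with a median of -0.01. Thus 327 of the 424 decreases, and 64 of the 65 increases, were in genes not called with IFNγ. Such genes are described below as outside the IFNγ response. Of the 12 genes lowered by IFNγ, 6 were lower with A-241 and 1, Shox2, was higher at 1.02. This split uses the same IFNγ libraries as the comparison itself, so that a high reading in them favours both an induction call and a decrease. A split by A-485+IFNγ against A-485, which shares no library with the comparison, gave 61 of 89 induced genes (0.744% of those tested) lower and 356 of 11868 uncalled genes lower. Since A-485 also inhibits P300/CBP, this split takes as induced only genes still called higher with IFNγ in its presence. Some genes not called with IFNγ may still respond to it, since 3 libraries can miss small responses. Of the 9776 whose log2 change with IFNγ was also under 0.5 in size, 204 were lower and 52 higher. Without IFNγ replicate 2, 97 of the 144 induced genes were lower, as were 322 of the 11808 uncalled genes, and 67 of the latter were higher. These were partly other genes. Of the original 424 decreases 357 kept their call in that fit, and of the original 65 increases 40 did.

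The upstream sequence of the lowered genes differed by class, and 4 examples are printed so that the contrast between an induced gene with interferon elements next to its start, an induced gene without them in this window, a lowered gene not called with IFNγ and a raised gene can be read directly. Each is the 250 bases before the transcription start in RefSeq (GRCm38.p6), read 5′ to 3′ on the strand of the gene. Capitals mark a match on either strand to the ISRE core GAAANNGAAA or to the GAS pattern TTCNNNGAA. Gm12250 and Cxcl9 are the 2 largest decreases among induced genes with at least 50 mean counts in the higher group, Adamts1 is a decrease outside the IFNγ response and Mxd1 is an increase.
Gm12250, chr11:58183593-58183842, plus strand: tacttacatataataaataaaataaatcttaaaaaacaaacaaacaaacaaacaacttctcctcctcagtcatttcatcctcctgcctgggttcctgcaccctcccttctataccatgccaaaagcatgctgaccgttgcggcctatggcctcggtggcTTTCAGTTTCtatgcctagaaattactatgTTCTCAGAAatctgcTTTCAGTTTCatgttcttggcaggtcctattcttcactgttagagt
Cxcl9, chr5:92328080-92328329, minus strand: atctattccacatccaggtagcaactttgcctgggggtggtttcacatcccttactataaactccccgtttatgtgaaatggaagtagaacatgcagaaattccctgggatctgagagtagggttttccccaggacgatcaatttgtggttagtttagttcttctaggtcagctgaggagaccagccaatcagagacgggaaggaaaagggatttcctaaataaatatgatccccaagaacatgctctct
Adamts1, chr16:85803114-85803363, minus strand: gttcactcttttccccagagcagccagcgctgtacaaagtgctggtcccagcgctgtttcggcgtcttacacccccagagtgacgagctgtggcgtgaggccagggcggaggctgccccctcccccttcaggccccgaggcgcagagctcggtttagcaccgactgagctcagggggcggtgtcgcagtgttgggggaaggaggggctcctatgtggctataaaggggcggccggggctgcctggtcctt
Mxd1, chr6:86669160-86669409, minus strand: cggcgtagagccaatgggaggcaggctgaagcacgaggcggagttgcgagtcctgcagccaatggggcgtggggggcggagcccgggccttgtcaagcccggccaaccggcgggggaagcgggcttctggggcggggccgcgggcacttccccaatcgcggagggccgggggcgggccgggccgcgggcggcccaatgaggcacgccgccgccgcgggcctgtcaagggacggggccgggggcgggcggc

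Gm12250 holds 2 ISRE cores, starting 91 and 46 bases before the start, with 1 GAS pattern at 61 bases before it, and the other 3 windows hold neither pattern. Of genes with 1 promoter entry, the ISRE core occurred in 37.7% of 53 promoters of induced genes that A-241 lowered, in 22.2% of 36 promoters of induced genes that it did not, in 2.96% of 169 promoters of genes lowered but not called with IFNγ, and in 0 of 40 of those raised. The share in all 6579 tested genes was 2.66%, and in all 22862 promoters of the reference it was 3.11%. The GAS pattern occurred in 18.9%, 11.1%, 6.51% and 12.5% of the same 4 sets, against 6.05% of tested genes and 7.23% of all promoters. Base composition also differed, with a median of 5 CpG dinucleotides in the windows of lowered induced genes, 17 in those of lowered genes not called with IFNγ, 18 in those of raised genes and 17 in all tested genes. These matches are descriptions of a short window, and nothing is read from the absence of one.

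Among genes induced by IFNγ, the largest decreases at 50 or more mean counts in the higher group were in the chemokine Cxcl9, in GTPases of the cell-autonomous defence families and in a small number of other inducible genes. Cxcl9 (ENSMUSG00000029417, chromosome 5, 92321347 to 92328079), a ligand of the T cell receptor CXCR3, read 150, 97.7 and 177 CPM with IFNγ and 1.96, 1.96 and 2.47 CPM with A-241 and IFNγ. The lowest IFNγ library was thus far above the highest inhibited one, for a log2 fold change of -6.05 ± 0.41 (SE) at an adjusted p = 1.7e-07 (edgeR). Gm12250, also known as Irgb10, an immunity-related GTPase, gave 371, 250 and 266 counts with IFNγ against 3, 6 and 2 counts, for -6.25 ± 0.51. Apol6, of the apolipoprotein L family, changed by -5.15. Batf2, an AP-1 family factor, Sectm1b and Gbp4 were at 3 counts or fewer in every A-241+IFNγ library, and were at least 15.9-fold, 12.4-fold and 17.9-fold lower against that floor. Gm43302, Gm4951, Tgtp1 and Tgtp2 completed the 10 largest at that count limit, with -5.32, -5.28, -4.77 and -4.74. Tgtp1 and Tgtp2 are near-identical copies that can share reads, so their separate values are uncertain.

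Every tested member of the GTPase families was lower. These were 5 of 8 listed guanylate-binding proteins, with a median of -2.92, and 10 of 13 listed immunity-related GTPases, with a median of -2.93. All were induced by IFNγ, so their level with IFNγ could carry them past the count filter. Of all induced genes 63.2% were lower. For these and later lists, the shares of all genes tested were 3.54% lower and 0.543% higher. Both families act on vacuoles that contain pathogens. Gbp2 went from 293, 422 and 313 CPM to 84.4, 81.5 and 88.3 CPM (-2.01), and Gbp7 from 60.1, 77.8 and 70.5 CPM to 15.4, 14.4 and 15.3 CPM (-2.21). In DMSO they read 5.20 ± 1.48 and 5.38 ± 1.85 CPM (mean ± SD, n = 3), so the inhibited libraries lay between the other groups. Igtp, also known as Irgm3, read 249, 290 and 277 CPM against 36.1, 30.7 and 36.3 CPM (-2.98 ± 0.19), and Iigp1 read 697, 360 and 645 CPM against 46.1, 59.0 and 54.4 CPM (-3.41 ± 0.27). Neither pair of groups overlapped.

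Of 16 chemokines and colony-stimulating factors, 5 were lower and 0 higher. Cxcl10, a second CXCR3 ligand, read 300, 121 and 250 CPM against 23.5, 29.5 and 32.4 CPM (-2.97 ± 0.35). Csf1, the growth factor of macrophages, read 28.8, 27.1 and 21.9 CPM against 7.18, 9.13 and 8.66 CPM (-1.63). Cxcl11, at 0, 0 and 2 counts with A-241 and IFNγ against 28, 12 and 17 counts, was at least 5.10-fold lower and lost its call without A-241+IFNγ replicate 1 (adjusted p = 0.0145, edgeR) or replicate 2. Of 28 antiviral genes 8 were lower, among them Ifit3 (-4.29) and Ifit3b (-3.47), near-identical copies that can share reads, the dNTP hydrolase Samhd1 (-1.62) and the oligoadenylate synthetase-like gene Oasl2 (-1.82).

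The lists of signalling and antigen presentation genes had smaller median decreases. They were also made up mostly of genes not called higher with IFNγ, since 5 of 22 and 8 of 20 members were induced. Of 22 genes of IFNγ signalling and the Irf family, 3 were lower, with a median of -0.64, and without IFNγ replicate 2 there were 5, with a median of -0.40. Irf1 read 721, 409 and 820 CPM against 353, 351 and 365 CPM, so the groups did not overlap, but the low IFNγ library widened the error and the change of -0.87 ± 0.26 did not pass (adjusted p = 0.055, edgeR). Without IFNγ replicate 2 it was -1.11 and passed (adjusted p = 0.0051, edgeR). The feedback inhibitor Socs1 gave 511, 4 and 320 counts with IFNγ, and its change of -1.37 was not called (adjusted p = 0.29, edgeR); without IFNγ replicate 2 it was -1.91 (adjusted p = 0.0021, edgeR). Irf8 (-2.43) and Stat2 (-1.05) passed, but omitting any of 4 libraries ended either call, with an adjusted p of up to 0.0214 and 0.0277 (edgeR), the highest without A-241+IFNγ replicate 2 and replicate 1. Of 20 antigen processing and presentation genes 3 were lower, with a median of -0.63. Cd274, which encodes the checkpoint ligand PD-L1, read 21.5, 18.8 and 12.9 CPM against 2.18, 2.28 and 2.06 CPM (-3.01 ± 0.30), and Nlrc5, the transactivator of MHC class I genes, changed by -2.90. The peptide transporter Tap1 read 72.3, 120 and 70.8 CPM against 30.5, 34.2 and 34.0 CPM (-1.41), a call lost without A-241+IFNγ replicate 1 (adjusted p = 0.0104, edgeR).

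Among genes not called with IFNγ, the 12 largest decreases that met the expression limit included matrix and adhesion genes, a BMP antagonist and transcription factors. Their log2 changes with IFNγ against DMSO, though not called, reached 2.20 in Zbtb7c, 1.36 in Slc25a48 and 1.08 in Has2, and the lowest was -0.87 in Cyp26b1. Has2 (ENSMUSG00000022367, chromosome 15, 56665627 to 56694539), a hyaluronan synthase of the plasma membrane, gave 208, 69 and 127 counts with IFNγ and 3, 6 and 3 counts with A-241 and IFNγ, for -4.86 ± 0.29 at an adjusted p = 1.7e-07 (edgeR). Thbs1, the matrix glycoprotein thrombospondin-1, read 88.2, 89.1 and 68.9 CPM against 4.57, 6.03 and 4.74 CPM (-3.99 ± 0.30), and the secreted protease Adamts1 read 247, 101 and 214 CPM against 10.7, 12.9 and 12.4 CPM (-3.96 ± 0.35). In these 3 genes the groups were far apart in every library. The mitochondrial carrier family member Slc25a48 changed by -4.29, the adhesion scaffold Nedd9 by -3.90, the retinoic acid hydroxylase Cyp26b1 by -3.36 and the zinc finger factor Bcl11b by -3.42. Zbtb7c was at 3 counts or fewer in every inhibited library and was at least 15.7-fold lower. Tcim (-3.34) gave 244, 11 and 181 counts with IFNγ against 12, 15 and 7 counts, and omitting any of 5 libraries ended its call (adjusted p of up to 0.0203, edgeR, without A-241+IFNγ replicate 3).

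**Figure D2:**
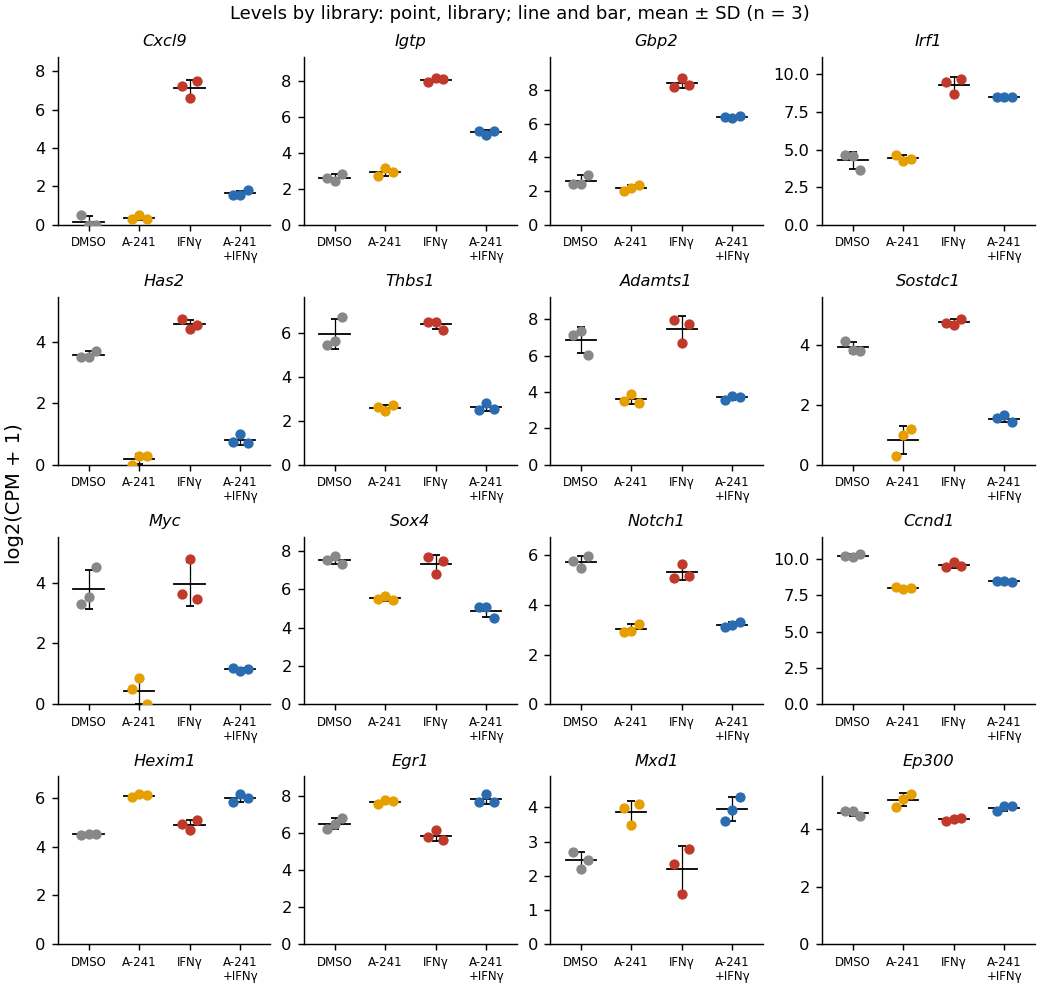
Levels of 16 genes as log2(CPM + 1) in the 3 libraries of DMSO, A-241, IFNγ and A-241+IFNγ, with 1 point per library and the mean ± SD. Has2, Thbs1, Adamts1 and Myc are low in both A-241 groups, Cxcl9 and Igtp are highest with IFNγ alone, and Hexim1, Egr1 and Mxd1 are high in both A-241 groups.

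Myc (chromosome 15, 61985391 to 61990374), a transcription factor that promotes growth and proliferation, gave 93, 88 and 57 counts with IFNγ and 6, 7 and 6 counts with A-241 and IFNγ (-3.64 ± 0.53, adjusted p = 0.00031, edgeR). Every inhibited library was below every other, and among the IFNγ libraries replicate 2 was highest per count sequenced, at 26.2 CPM against 11.4 and 9.97 CPM. In the list of 10 genes of its network it was the 1 decrease, and Mxd1, which encodes a repressor that competes with Myc for Max, was the 1 increase, with 4.06, 1.79 and 5.95 CPM against 11.1, 14.4 and 19.0 CPM (1.85 ± 0.32). The call of Mxd1 was lost without A-241+IFNγ replicate 3 (adjusted p = 0.0112, edgeR).

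Of 18 genes listed as BMP and TGFβ targets 8 were lower and 0 higher, beside 3.54% of all genes tested lower. The called members include ligand genes (Inhba, Inhbb, Tgfb2 and Tgfb3) and secreted antagonists. The median was -1.26, with 18 of 18 values negative, against 6171 of 11964 for all genes. Sostdc1, a secreted BMP and Wnt antagonist, read 25.6, 24.4 and 28.2 CPM against 1.96, 2.12 and 1.65 CPM (-3.75 ± 0.27), the activin antagonist Fst changed by -2.37, and Id4 and Id2, inhibitors of basic helix-loop-helix factors, by -2.42 and -1.38. Of 10 Notch pathway genes 4 were lower, with a median of -1.47. The receptor Notch1 read 33.2, 49.2 and 35.1 CPM against 7.61, 7.99 and 8.87 CPM (-2.25 ± 0.21), while the calls of Jag1 (-2.57), Lfng (-3.22) and Dtx4 (-1.33) each ended on omitting any of 3 or 4 libraries (adjusted p of up to 0.0218, 0.0462 and 0.0551, edgeR, without A-241+IFNγ replicate 3, 2 and 2). Of 12 Wnt ligands and targets 2 were lower, among them Nkd2, an inhibitor of the pathway (-1.79), and of 15 YAP and TEAD target genes 3 were, among them Tgfb2 (-1.06). Without IFNγ replicate 2 the YAP and TEAD list held 5 decreases, with a median of -0.47 in place of -0.84. Of 10 growth factor genes of the EGF, FGF and VEGF families 4 were lower, of which Vegfc, the lymphatic growth factor, with 51, 10 and 36 counts against 3, 3 and 3 counts and at least 7.94-fold lower, kept its call with each of the 6 libraries left out; 2 of 10 were lower without IFNγ replicate 2. Of 25 receptor tyrosine kinases 3 were lower, among them Met, the receptor of hepatocyte growth factor (-1.41), and without IFNγ replicate 2 there were 5.

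Of 37 homeobox, Forkhead, Sox, T-box and related factors 11 were lower and 0 higher, with a median of -0.88, or -0.67 with the 2 members of 3 counts or fewer in a group set at the bound of their fold. Sox4 read 207, 110 and 177 CPM against 32.6, 32.8 and 22.1 CPM (-2.50 ± 0.22), the epithelial ETS factor Ehf changed by -2.91 and Foxp1 by -1.16. Of 16 Krüppel-like and Sp factors 6 were lower, with Klf3, Klf13, Klf6 and Klf5 at -2.46, -1.96, -1.49 and -1.34. Of 18 Tle proteins and other co-repressors 3 were lower, including Tle3, a co-repressor of the Groucho family (31.8, 44.7 and 30.1 CPM against 3.92, 5.71 and 4.74 CPM, -2.87 ± 0.27), and the nuclear receptor co-repressor Nrip1 (-1.09). Of 14 NF-κB subunits and feedback genes 2 were lower, among them Bcl3, a nuclear IκB protein (-2.75). Of 12 circadian genes 2 were lower, among them the repressor Bhlhe41 (-1.94).

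**Figure D3:**
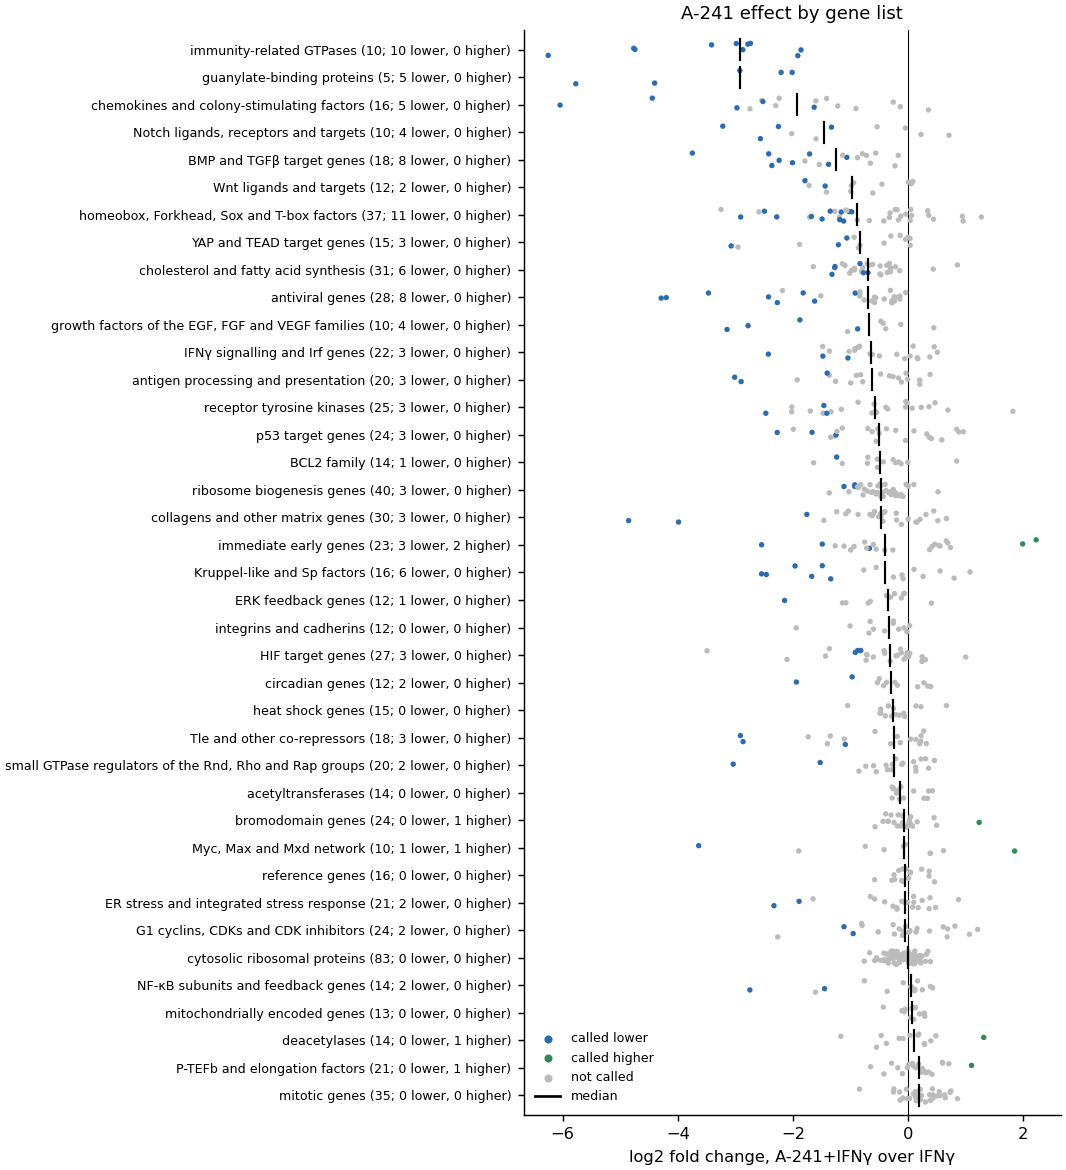
Log2 fold change between A-241+IFNγ and IFNγ for the tested members of each gene list, 1 point per gene, coloured by call, with the median as a line. Lists are ordered by median, from -2.93 for the immunity-related GTPases to 0.19 for the mitotic genes, and the label of each gives its tested members and calls.

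Immediate early genes did not move together. Of 23 genes 3 were lower and 2 higher. Egr1, a zinc finger factor of the serum response, read 53.8, 70.9 and 48.6 CPM against 204, 276 and 206 CPM (1.99 ± 0.20, adjusted p = 6.3e-06, edgeR), and Fos gave 8, 7 and 8 counts against 26, 47 and 31 counts (2.23 ± 0.36). In both, every inhibited library was above every other. Klf6 (174, 212 and 182 CPM against 69.6, 69.1 and 63.1 CPM) fell by 1.49 on the log2 scale, and Jun changed by -0.67, a call lost without any 1 of the 3 A-241+IFNγ libraries (adjusted p of up to 0.0148, edgeR, without replicate 1). Of 12 ERK feedback genes 1 was lower, Phlda1 (-2.15).

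Of 31 cholesterol and fatty acid synthesis genes 6 were lower and 0 higher, with a median of -0.70 and 29 of 31 values negative. Sqle, the squalene epoxidase, read 78.5, 94.4 and 76.4 CPM against 37.6, 33.4 and 32.2 CPM (-1.27 ± 0.15), and the desaturase Scd2, the elongase Elovl6 and the sterol transfer protein Stard4 changed by -1.27, -1.32 and -0.77. Of 21 genes of ER stress and the integrated stress response 2 were lower, the leucine zipper factor Cebpb (-2.33) and the pseudokinase Trib3 (-1.89). Of 24 G1 cyclins, CDKs and CDK inhibitors 2 were lower. Ccnd1, the D-type cyclin of G1, read 701, 875 and 737 CPM against 363, 359 and 346 CPM (-1.11 ± 0.14), and Cdk6 (-0.95) lost its call without A-241+IFNγ replicate 1 (adjusted p = 0.0145, edgeR) or replicate 2. Of 30 collagen and other matrix genes 3 were lower, namely Has2, Thbs1 and the metalloprotease inhibitor Timp3, which read 643, 602 and 654 CPM against 189, 185 and 186 CPM (-1.76 ± 0.13). Of 24 p53 target genes 3 were lower, of 27 HIF target genes 3, of 14 BCL2 family genes 1 and of 20 small GTPase regulators 2, among them Cdc42ep1 (-3.04). Beside the 3.54% of all genes tested that were lower, counts of 1 to 3 members, here and in other lists, are not read as results about a list. Of 40 ribosome biogenesis genes 3 were lower, among them Tsr1 (-0.93), with a median of -0.48 and 37 of 40 values negative; the median was -0.23 without IFNγ replicate 2.

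Several lists held no call by edgeR or by DESeq2. These were 83 cytosolic ribosomal protein genes (median 0.00), 13 mitochondrially encoded genes (0.07) and 16 reference genes (-0.06), of which 0 also passed an unadjusted p below 0.05. Of 35 mitotic genes (0.19) 1 was lower and 3 higher at that unadjusted limit, of 15 heat shock genes 4 were lower and 1 higher, and of 12 integrins and cadherins 4 were lower. Birc5, which encodes the chromosomal passenger protein survivin, read 593, 317 and 541 CPM against 546, 527 and 527 CPM (0.14), with the one low value in IFNγ replicate 2.

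The transcripts of the inhibited enzymes themselves were not called. Ep300 read 18.7, 19.7 and 19.9 CPM with IFNγ and 23.7, 27.4 and 26.8 CPM with A-241 and IFNγ, a log2 difference of 0.42 ± 0.15 (adjusted p = 0.11, edgeR), with no overlap between groups. Crebbp read 72.5, 70.6 and 64.0 CPM against 82.2, 91.0 and 91.6 CPM (0.35 ± 0.14, adjusted p = 0.16, edgeR). Of 14 acetyltransferases 0 were called by edgeR or DESeq2, and 2 were higher at an unadjusted p below 0.05. Of 14 deacetylases 1 was higher, Sirt1 (1.31), whose call ended on omitting any of 4 libraries (adjusted p of up to 0.0173, edgeR, without A-241+IFNγ replicate 3), and of 24 bromodomain genes 1 was higher, Brd2, which read 332, 184 and 272 CPM against 664, 681 and 508 CPM (1.23 ± 0.28) and lost its call whichever of the 6 libraries was left out (adjusted p of up to 0.0445, edgeR, without A-241+IFNγ replicate 1).

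The increases were smaller and more diverse. Hexim1, which with 7SK RNA holds the elongation kinase P-TEFb inactive, read 29.1, 24.7 and 33.6 CPM against 55.9, 69.8 and 62.5 CPM (1.10 ± 0.14, adjusted p = 6.4e-05, edgeR) and was the 1 call among 21 genes of P-TEFb and elongation. Besides Egr1 and Mxd1, the 12 largest increases with sufficient counts were Fam117a (2.09), the homeobox factor Tlx3 (1.84), the ubiquitin ligase adaptors Asb1 (1.61) and Fbxo21 (1.36), the release factor paralog Gspt2 (1.61), Smim10l2a (1.60), Dtwd2 (1.48), Sirt1, Zfp335 (1.30) and the malonyl-CoA decarboxylase Mlycd (1.29). Fam117a read 2.70, 1.19 and 2.80 CPM against 12.4, 10.4 and 7.42 CPM, and Gspt2 4.30, 5.06 and 4.72 CPM against 12.6, 12.6 and 17.5 CPM, both without overlap. Of these, Egr1, Fam117a, Gspt2 and Dtwd2 kept their calls with each of the 6 libraries left out. Tlx3 and Asb1 lost theirs with 2 and 3 of the libraries left out (adjusted p of up to 0.0137 and 0.0152, edgeR, without A-241+IFNγ replicate 1 and IFNγ replicate 1). Fbxo21, Smim10l2a, Zfp335 and Mlycd each lost theirs with 5, at an adjusted p of up to 0.0339, 0.0326, 0.0574 and 0.0414 (edgeR), the highest without A-241+IFNγ replicate 3, IFNγ replicate 1, A-241+IFNγ replicate 1 and A-241+IFNγ replicate 3. Leaving out 1 library at a time, 204 of the 424 decreases and 11 of the 65 increases kept their call in all 6 fits. All 489 kept their sign, which the lack of overlap between groups in every called gene made all but certain.

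The same inhibitor was also given without IFNγ, which allows the values of each gene to be set beside a comparison that shares no library with the first. The split by IFNγ against DMSO does share the DMSO libraries with it. A low reading in DMSO favours both an induction call and a less negative value against DMSO, so values by class are descriptions. Without the split, 393 of the 424 decreases were negative against DMSO and 265 were called lower there. Against DMSO, A-241 lowered 422 genes (3.53% of those tested) and raised 99 (0.827%). All 327 genes lowered under IFNγ but not called with IFNγ were also negative against DMSO, with a median of -1.59 beside -1.58 under IFNγ, and 247 of them (75.5%) were called lower there too. All 64 genes raised outside the IFNγ response were positive against DMSO, with a median of 0.947 beside 1.076, and 32 were called higher there too. The 91 IFNγ-induced decreases had a median of -0.30 against DMSO beside -2.38 under IFNγ, with 60 negative and 12 (13.2%) called lower. Of these genes, Cxcl9 was at 0.141 CPM in DMSO and 0.274 CPM with A-241 alone, a level at which a decrease in it could not be seen. Whether low levels without IFNγ account for the values of the other genes was not tested. Taken the other way, 265 of the 422 genes lowered at steady state (62.8%) were also lower under IFNγ, as 32 of the 99 raised ones (32.3%) were higher. With IFNγ replicate 2 and DMSO replicate 3 both left out, 326 of the 327 values were negative and 64 of the 64 positive.

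**Figure D4:**
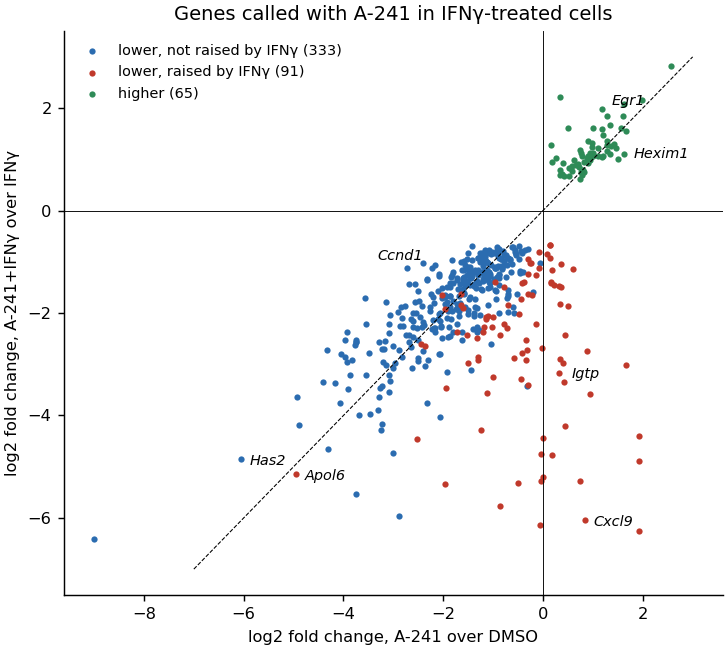
Log2 fold change due to A-241 under IFNγ (vertical axis) against that without IFNγ (horizontal axis) for the 489 called genes, with the line of equal values dashed. The 333 decreases outside the induced set and the 65 increases lie along the line, and 88 of the 91 decreases among induced genes lie below it, many near 0 on the horizontal axis.

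Single genes show both patterns. Has2 changed by -4.86 with IFNγ and -6.06 without, Thbs1 by -3.99 and -3.69, Sox4 by -2.50 and -2.02, and Hexim1 by 1.10 and 1.63, all called in both settings. Ccnd1 changed by -1.11 with IFNγ and -2.23 without. Apol6 changed by -5.15 and -4.96, although IFNγ raised it by 3.85. Igtp changed by -2.98 with IFNγ and 0.39 without. Tested directly as an interaction, the effect of A-241 with IFNγ differed from that without IFNγ in 4 genes at an adjusted p below 0.01 (edgeR; 0.0334% of those tested), all more negative with IFNγ and all induced by it, among them Igtp, Gbp3 and Iigp1. At an unadjusted p below 0.05, 231 interaction terms were negative and 170 positive, and DESeq2 called 27 at the same adjusted threshold.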

How the data were processed

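Gene expression had been measured by QuantSeq 3′ mRNA sequencing, and what the authors deposited for the 18 libraries is a table of raw read counts by gene. Per the labels and the study's methods, reads were demultiplexed with bcl2fastq 2.17.1.14, checked with FastQC 0.11.5, trimmed with cutadapt 1.7, aligned to GRCm38 with HISAT2 2.1.0 and counted by the authors on exons with featureCounts. No strand setting is given, and reads on several genes were counted for each, so genes with shared exon bases share counts and their values are uncertain to that extent. Of the genes given with values these are Gbp4, Batf2, Apol6, Has2, Tgtp1, Cxcl11, Thbs1, Tcim, Cdc42ep1, Igtp (with Irgm2), Cxcl10, Nlrc5, Bcl3, Sox4, Klf3, Id4, Cebpb, Notch1, Phlda1, Gbp2, Timp3, Tap1 (with Psmb9), Scd2, Foxp1, Ccnd1, Tgfb2, Tsr1, Irf1, Jun, Ep300, Brd2, Zfp335, Sirt1, Smim10l2a and Fam117a. Since reads fall near the 3′ end, counts do not separate isoforms.

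Identifiers were joined to GENCODE vM21; 42548 of 43629 matched, and the 1081 others stayed in the totals. Genes passing filterByExpr (11964) were scaled by TMM factors and fitted in R 4.3.3 with edgeR 4.0.16 (glmQLFit, 1 mean per group over all 18 libraries, 12 residual degrees of freedom), and contrasts were tested with glmQLFTest, two-sided, with Benjamini-Hochberg adjustment over all genes tested and a limit of 0.01. CPM values use the TMM-scaled totals, and the sums over markers use unscaled totals. Where every library of a group held 3 counts or fewer, the fold is a lower bound against 3 counts in its shallowest library; 3 counts were 0.369 to 0.894 CPM in the 6 libraries.

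Named genes were, among called genes with at least 50 mean counts in the higher group and no overlap between groups, the 10 largest decreases among IFNγ-induced genes and the 12 largest decreases and 12 largest increases outside them, then up to 4 called members per list by adjusted p, members of highest count where fewer than 2 were called, and Ep300, Crebbp, Irf1, Cd274, Tap1, Socs1, Myc and Hexim1. Some genes that the rule takes are not reported here. The comparison, lists and rule were chosen with earlier results of these data known. DESeq2 1.42.0, limma-voom (limma 3.58.1), svaseq (sva 3.50.0), other scalings, filters and thresholds, a replicate block and the omission of libraries were tried as alternatives. Same-numbered IFNγ and A-241+IFNγ libraries deviated from their group means with r of -0.30, -0.36 and -0.12, so the numbers were not taken as pairs.

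The method was tested on simulated data before use. Of 100 genes given a log2 change of 1, 15% were called, and of 100 given a change of 2, 72% were. With no change put in, 0 genes were called. Many changes of 1 on the log2 scale would thus be missed at this threshold. Doses of A-241 and A-485 differed, so these were not compared.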

Additional observations from a re-analysis of the deposited data

Results flagged for a closer look

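In the genes below the effect of A-241 differed between cells with and without IFNγ by the interaction term (edgeR, adjusted over all genes tested). The log2 effect with IFNγ minus that without was -3.38 for Igtp (adjusted p = 3.2e-05), -2.58 for Gbp3 (adjusted p = 0.0028) and -3.12 for Iigp1 (adjusted p = 0.0038). In each, the 3 A-241+IFNγ libraries lay below the 3 IFNγ libraries. Groups of 3 libraries are too small for an outlier test of single values.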

How the results depend on the processing

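Counts of calls depended on the processing more than directions did. For the 42 genes tracked singly, 624 of their values under the alternatives stayed on the same side of the threshold, 59 fell short of it and 7 newly passed it. None changed sign, which was largely set in advance for genes whose groups did not overlap. In the order lower, higher, lower outside the IFNγ response and higher outside it, the counts of 424, 65, 327 and 64 became 713, 236, 590 and 233 without IFNγ replicate 2 and DMSO replicate 3, with 419 and 63 of the original 424 and 65 shared; 1041, 503, 915 and 502 with 2 surrogate variables; 690, 228, 571 and 227 at an adjusted p below 0.05; and 82, 1, 35 and 1 when only the compared libraries were fitted, where fewer libraries inform the spread. DESeq2 gave 608, 148, 492 and 147, no filter on low counts gave 345, 36, 253 and 35, and a further limit of 1 on the log2 scale left 42 and 41 increases. Total counts as scaling gave 214 decreases outside the IFNγ response.

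Leaving out 1 library at a time gave 234 to 429 decreases, 16 to 68 increases, 162 to 322 decreases and 16 to 67 increases outside the IFNγ response, and 1 to 10 interactions; the lowest counts were without A-241+IFNγ replicate 1. For A-241 against DMSO the ranges were 224 to 401 and 25 to 58. Called interactions numbered 17 without both outlying libraries, 80 with 2 surrogate variables, 27 with DESeq2, 12 at an adjusted p below 0.05, 2 with limma-voom and 1 when only the compared libraries were fitted. For A-241 against DMSO, 422 lower and 99 higher became 791 and 195, 1212 and 936, 634 and 179, 742 and 343, and 74 and 1 under both libraries out, surrogate variables, DESeq2, the 0.05 limit and the compared libraries alone; increases were 51 with no filter and 61 with the added limit of 1. The causes were not tested.

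With the replicate number as a block, although the numbers do not pair the libraries, increases numbered 39, and 38 outside the IFNγ response, decreases 338 and 250, interactions 2, and increases against DMSO 56.

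At 4251408 to 7856830 counts per library and 3 libraries per group, a missing call does not show that a gene was unchanged.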

Other observations

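The genes here are further decreases outside the IFNγ response. They were chosen after their values were seen, from genes that kept their call with each of the 6 libraries left out, and are given singly, with no statement about the groups they belong to. Several encode transcription factors of signalling pathways and lineages, among them the ligand-activated factors Ahr (-2.79) and Vdr (-2.01), the Runt factor Runx1 (-3.02), the AP-2 factor Tfap2b (-1.80), the Wnt effector Tcf7l2 (-1.89), the RAS-responsive factor Ets1 (-1.70), the GATA-type repressor Trps1 (-2.08) and Bach2 (-3.54), a repressor of the basic leucine zipper class. In each of these genes the 3 A-241+IFNγ libraries lay below the 3 IFNγ libraries.

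Others encode signalling proteins, such as the endothelin precursor Edn1 (at least 5.83-fold lower, with 3 counts or fewer in each A-241+IFNγ library), the LIF receptor Lifr (-2.17), the protease-activated receptor F2rl1 (-2.05) and the Kit ligand Kitl (-1.56). Also lower were the insulin receptor adaptor Irs1 (-2.71), the PI3 kinase subunit Pik3r1 (-1.97), the kinase Sgk1 (-1.99) and the mTOR inhibitor Deptor (-1.72). The matrix protease Adamts5 (-2.96) and the laminin chain Lama4 (-1.89) were lower beside Adamts1 and Thbs1, and so was the connexin Gja1 (-1.46). Among the increases, the replication licensing factor Cdc6 (1.12) and the RNA-binding protein Cpeb4 (1.28) were called. Other values are log2 fold changes between A-241+IFNγ and IFNγ, called at an adjusted p below 0.01 (edgeR).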
